A study of Rattus norvegicus with 8 samples.

Results

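Prostaglandin synthesis, transport and reception was followed through 10 genes, named Ptgs1, Ptgs2, Ptges, Ptges2, Ptges3, Tbxas1, Slco2a1, Hpgd, Ptger2 and Ptger4, out of 18166 genes measured in cultured alveolar epithelial type II (ATII) cells of the rat, which make the surfactant of the lung. The 10 genes were selected on earlier results of this same comparison, so their differences between the virus groups are partly what chose them. A gene was taken from the probe set whose annotation gives its symbol alone and, with several probe sets, from the brightest of them on average. This touched only Ptger2, whose 2 probe sets carried equal values on all 8 arrays, so the choice by level changed no number. The tested cells had received AdHIF1a, an adenovirus expressing a constitutively active mutant of HIF1a, the subunit of hypoxia-inducible factor 1 that cells degrade when oxygen is plentiful. Their controls had received AdGFP, an adenovirus expressing green fluorescent protein. All cells came from male Sprague Dawley rats of unstated age. From every one of 4 rats there was 1 AdHIF1a well and 1 AdGFP well, extracted on a date of its own, so that the wells are paired by rat. Rat and extraction date cannot be told apart. In both groups the virus (multiplicity of infection 20) was left on suspended cells for 3 h with 2% FBS present. The cells were then put on 80% rat tail collagen and 20% Matrigel with 5% rat serum, and RNA was taken after a further 24 h. Both therefore carry an adenovirus, and no well without one was analysed here.

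Prostaglandins are made from arachidonic acid that phospholipases free from membranes. The cyclooxygenases encoded by Ptgs1 and Ptgs2 turn it into an unstable intermediate, from which terminal synthases make prostaglandin E2, thromboxane and the other prostanoids. The signal ends when a transporter takes the prostaglandin up from outside the cell and a dehydrogenase oxidises it. In the lung, prostaglandin E2 is known as a product of the epithelium and as a brake on fibroblast growth.

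Ptges and Slco2a1 had the largest differences of the 10 genes, in opposite directions, and their promoters are shown together with that of Ptgs2, the inducible cyclooxygenase gene, which works just upstream of Ptges. The sequences are the 250 bases before the annotated start of each gene on its coding strand, from RefSeq on GRCr8. Ptges lies on the minus strand (chr3:34586988-34587237), and Slco2a1 (chr8:112467489-112467738) and Ptgs2 (chr13:64713813-64714062) lie on the plus strand. Capitals mark the HIF core motifs ACGTG and GCGTG and the GC box GGGCGG, each searched on both strands. These motifs were settled on after the promoter sequences had been seen, and other motifs had been looked for first, so the matches are given as a description.
Ptges: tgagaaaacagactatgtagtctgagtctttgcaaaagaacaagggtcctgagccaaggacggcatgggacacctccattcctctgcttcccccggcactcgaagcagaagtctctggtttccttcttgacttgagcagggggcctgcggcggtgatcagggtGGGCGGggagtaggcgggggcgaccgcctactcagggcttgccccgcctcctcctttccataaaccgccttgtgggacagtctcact
Slco2a1: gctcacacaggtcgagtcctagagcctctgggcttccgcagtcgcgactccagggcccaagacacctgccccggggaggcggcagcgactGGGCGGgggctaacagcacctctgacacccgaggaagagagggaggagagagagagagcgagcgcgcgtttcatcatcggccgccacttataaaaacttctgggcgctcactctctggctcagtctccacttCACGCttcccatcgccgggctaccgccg
Ptgs2: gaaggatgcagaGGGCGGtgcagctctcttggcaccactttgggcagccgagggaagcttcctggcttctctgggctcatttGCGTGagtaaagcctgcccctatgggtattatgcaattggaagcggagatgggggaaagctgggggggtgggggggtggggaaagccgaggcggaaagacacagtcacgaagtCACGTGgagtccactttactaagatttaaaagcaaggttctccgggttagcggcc
The Ptges window held neither HIF core and 1 GC box, at bases 87 to 82 before the start. The Slco2a1 window held GCGTG on the opposite strand at bases 28 to 24 before the start, and a GC box at bases 160 to 155. The Ptgs2 window held ACGTG on each strand, overlapping in a single palindrome between bases 55 and 50, GCGTG at bases 168 to 164 and a GC box at bases 238 to 233. Of the 9 member genes with a RefSeq promoter (all but Ptges2), 5 held a HIF core, against 36.7% of all 33469 windows of the same length. Those windows were not limited to genes on the array or matched for GC content, so no enrichment is read from this. ACGTG was found in 16.6% of all windows, GCGTG in 25.9% and GGGCGG in 30.5%. A match is a description of letters and not of binding, and the windows leave out all sequence farther from the start.

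The arrays gave log2 signals, which ran from 1.42 to 13.57, with array medians of 5.02 to 5.20 in AdHIF1a wells and 5.00 to 5.13 in AdGFP wells. The label of the cells was checked first. None of 11 measured ATII markers had a mean below the median of all values (5.10), and the surfactant protein gene Sftpc averaged 12.62 in AdHIF1a wells and 12.34 in AdGFP wells. Means below that median were seen for 6 of 10 endothelial, 6 of 10 fibroblast and smooth muscle and 6 of 9 ciliated and club cell markers. The same was so for only 2 of 15 macrophage and 1 of 10 type I alveolar cell markers, so most markers of these 2 cell types were not low. The club cell marker Scgb1a1 was bright, with a mean of 12.68 in AdHIF1a wells and 12.65 in AdGFP wells. Other bright markers by their AdGFP means included Lyz2 (macrophage, 12.6), Ager (type I, 12.6) and Pdpn (type I, 12.3). Tagln (smooth muscle, 9.9), Esam (endothelial, 9.7) and Tppp3 (ciliated, 9.2) were bright too, and the list is not complete. Hif1a, the gene the virus is meant to express, went the other way from its label, with 10.64, 10.69, 10.77 and 10.48 in AdHIF1a wells, against 11.10, 11.05, 11.32 and 11.03 in AdGFP wells. It was lower in 4 of 4 rats (-0.48 ± 0.08, limma adjusted p = 0.0217). The species and extent of the virus's HIF1a sequence are not given in the labels, so whether this rat probe set reads it is unknown. The carbonic anhydrase gene Car12, a known HIF target, had a mean of 10.68 in AdHIF1a wells and 4.73 in AdGFP wells. Its increase was the largest of all 18166 genes (rank 1), so it is not a typical gene. The other array checks, Vegfa and Pdk1, differed by 1.52 ± 0.15 (rank 145) and 1.98 ± 0.09 (rank 76). Sftpc, Scgb1a1, Lyz2, Ager and Hif1a were named after their values were seen. The files hold no detection calls.

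The comparison asked how constitutively active HIF1a changes the genes that make, move, degrade and sense prostaglandins. In AdHIF1a wells the synthase gene Ptges was 5.93-fold higher and the transporter gene Slco2a1 7.77-fold lower than in AdGFP wells of the same rats. The thromboxane synthase gene Tbxas1 was 1.45-fold lower. Neither cyclooxygenase gene, neither of the other prostaglandin E synthase genes, the dehydrogenase gene Hpgd and neither receptor gene passed the threshold. Each difference is the AdHIF1a signal less the AdGFP signal on the log2 scale, averaged over the 4 rats by limma's paired fit and followed by its SE, and a call is a Benjamini-Hochberg adjusted p under 0.05 over all 18166 genes. By this limma test 1 of the 10 genes was higher and 2 were lower, and 13.4% of all genes were called (5.68% higher and 7.77% lower). Nothing is read from this count, since the genes were chosen on this comparison, and the adjusted p of each of the 10 genes describes its place in the fit to all genes without being independent support. The median difference was -0.06 over the 10 genes and -0.005 over all genes.

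**Figure D1:**
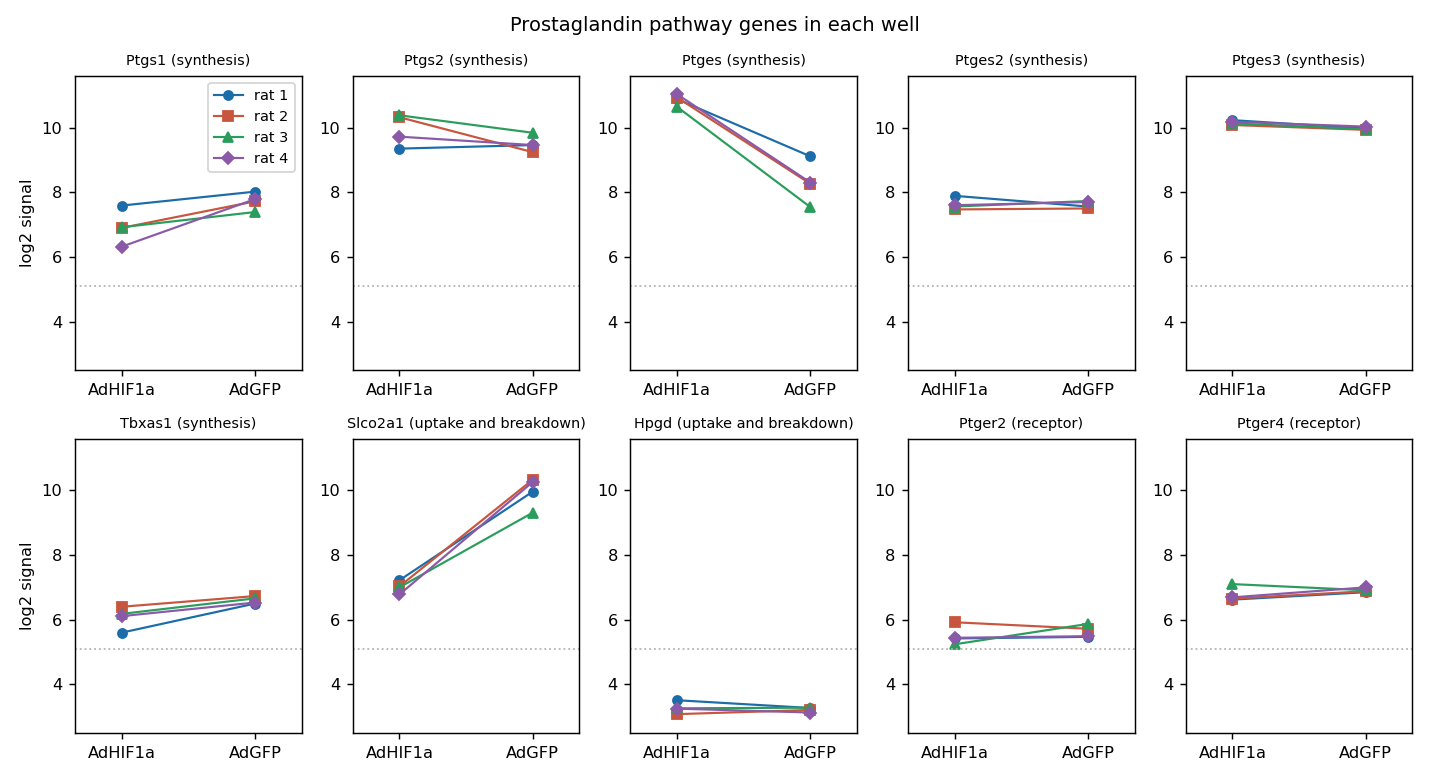
Log2 signal (y axis) of the 10 genes in the AdHIF1a and AdGFP wells (x axis), with the 2 wells of each rat joined by a line and the median of all values, 5.10, dotted. Ptges lay above 10.6 in the 4 AdHIF1a wells and below 9.2 in the 4 AdGFP wells, Slco2a1 showed the opposite order, and Hpgd stayed below the dotted line in all 8 wells.

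Ptgs1 encodes the cyclooxygenase that most tissues make at rest. Its log2 signal was 7.59, 6.90, 6.92 and 6.32 in the AdHIF1a wells of rats 1 to 4, against 8.02, 7.72, 7.39 and 7.79 in their AdGFP wells. All 4 AdHIF1a wells were below the AdGFP well of the same rat, but the groups overlapped, because the AdHIF1a well of rat 1 exceeded the AdGFP well of rat 3. The difference was -0.80 ± 0.19 and just missed the threshold (limma adjusted p = 0.0518). It ranged from -0.43 in rat 1 to -1.47 in rat 4. Ptgs1 passed with quantile normalization (adjusted p = 0.0476), median centring (0.0429), a filter on dim genes (0.0335) and a trended variance prior (0.0378). It also passed where the variance prior was taken over the named genes only (0.0173), a fit that was run first. The choice between that fit and the one used here was made with both results in view, and it decides this call. Ptgs1 did not pass without any 1 of the rats (0.0656 to 0.179).

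Ptgs2 encodes the cyclooxygenase that inflammatory and growth signals induce. Its signal was 9.35, 10.32, 10.38 and 9.72 in AdHIF1a wells, against 9.46, 9.24, 9.84 and 9.46 in AdGFP wells. The AdHIF1a well was the higher one in rats 2, 3 and 4 and slightly the lower one in rat 1, and the groups overlapped. The difference of 0.44 ± 0.20 had a 95% interval of -0.05 to 0.94 (limma adjusted p = 0.226), and its size varied between rats from -0.11 to 1.08.

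Ptges encodes the inducible microsomal synthase that converts the cyclooxygenase product to prostaglandin E2 with glutathione. Its signal was 10.88, 10.93, 10.64 and 11.03 in AdHIF1a wells, against 9.11, 8.26, 7.54 and 8.30 in AdGFP wells. The groups did not overlap, which was so for 22.5% of all genes. The AdHIF1a wells lay close together (10.87 ± 0.17, SD, n = 4) and the AdGFP wells were more spread (8.30 ± 0.64), so that the rat with the highest AdGFP signal, rat 1, had the smallest difference (1.77) and the rat with the lowest, rat 3, the largest (3.10). The mean difference was 2.57 ± 0.22, or 5.93-fold (95% interval 4.05 to 8.68, limma adjusted p = 0.00361), and higher in 4 of 4 rats. It was the difference of rank 39 from the top among all genes. The call held without each rat in turn (adjusted p 0.00592 to 0.0305).

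The other enzymes credited with prostaglandin E2 synthesis did not pass the threshold. Ptges2, a membrane-associated synthase, had 7.89, 7.47, 7.56 and 7.60 in AdHIF1a wells, against 7.56, 7.50, 7.73 and 7.70 in AdGFP wells. Its groups overlapped and the difference was 0.01 ± 0.11 (95% interval -0.27 to 0.29). Ptges3, a cytosolic synthase better known as the p23 co-chaperone of heat shock protein 90, had 10.23, 10.08, 10.13 and 10.18 in AdHIF1a wells, against 9.97, 9.93, 9.95 and 10.03 in AdGFP wells. All 4 AdHIF1a wells were slightly above all AdGFP wells, and the difference of 0.19 ± 0.08, or 1.14-fold, had an adjusted p of 0.209 in limma. The intervals of both genes end below 0.39, whereas that of Ptges begins at 2.02.

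Tbxas1 encodes the synthase of thromboxane, which constricts vessels and activates platelets. Its signal was 5.60, 6.40, 6.18 and 6.11 in AdHIF1a wells, against 6.50, 6.73, 6.66 and 6.53 in AdGFP wells. The groups did not overlap, and the difference was -0.53 ± 0.12 (95% interval -0.83 to -0.23, limma adjusted p = 0.0436), largest in rat 1 (-0.90). The call was lost without rat 1, 2, 3 or 4 (adjusted p 0.0614, 0.113, 0.126 and 0.139) and without the rat as a block (0.0581).

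**Figure D2:**
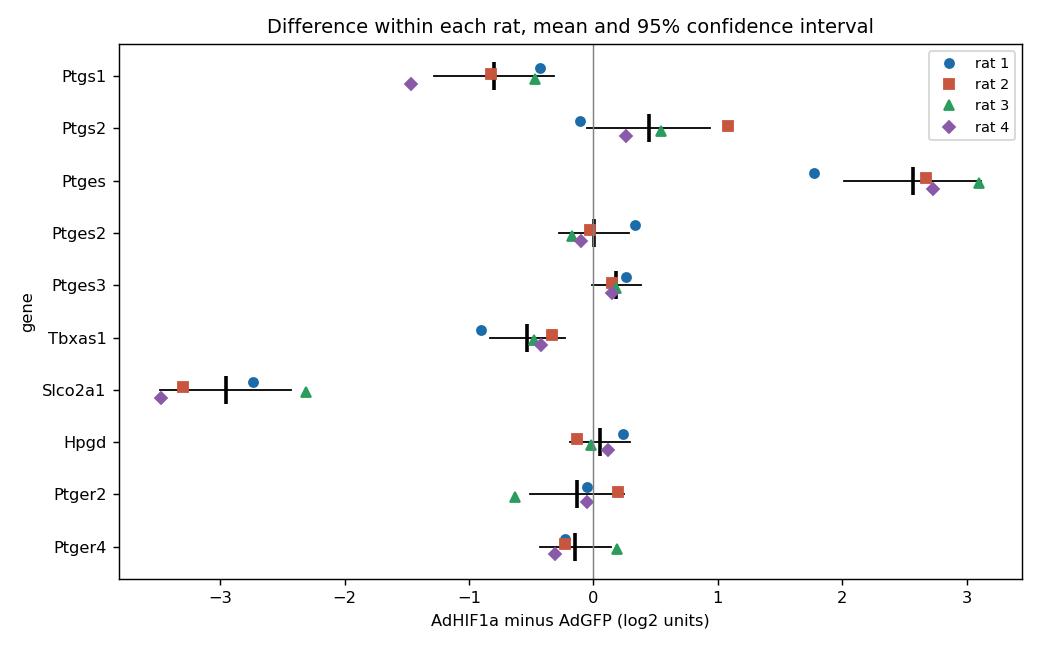
Difference AdHIF1a minus AdGFP in log2 units (x axis) of the 10 genes (y axis), with a symbol for each of the 4 rats, a tick for the mean and a line for limma's 95% confidence interval. The intervals of Ptges (2.02 to 3.12) and Slco2a1 (-3.48 to -2.43) lie far from 0 on opposite sides, and those of Ptgs2, Ptges2, Ptges3, Hpgd, Ptger2 and Ptger4 include 0.

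Slco2a1 encodes the prostaglandin transporter, which carries prostaglandins from outside the cell to the enzymes that degrade them. Its signal was 7.22, 7.03, 7.00 and 6.78 in AdHIF1a wells, against 9.96, 10.33, 9.31 and 10.26 in AdGFP wells. The groups were separated by more than 2 log2 units, and again the AdHIF1a wells (7.01 ± 0.18, SD) varied less than the AdGFP wells (9.97 ± 0.47). The differences were -2.74, -3.30, -2.31 and -3.48 in rats 1 to 4, with a mean of -2.96 ± 0.21, or 7.77-fold (95% interval 5.40 to 11.2). Only 1 of the 18166 genes had a more negative difference. Slco2a1 was already known as one of the most decreased genes when the genes were chosen, so these values are a description with no test.

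Hpgd encodes the dehydrogenase that takes the first step of prostaglandin breakdown. Its signal was 3.51, 3.08, 3.26 and 3.25 in AdHIF1a wells, against 3.27, 3.21, 3.28 and 3.13 in AdGFP wells. All 8 values lay below the array medians, where changes are compressed, so a difference in Hpgd may not be detectable on this probe set. The measured difference was 0.05 ± 0.10 (95% interval -0.19 to 0.30).

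Neither receptor gene passed the threshold. Ptger2 and Ptger4 encode receptors of prostaglandin E2 that raise cyclic AMP. Ptger2 had 5.42, 5.92, 5.24 and 5.44 in AdHIF1a wells, against 5.47, 5.72, 5.87 and 5.49 in AdGFP wells, and the groups overlapped. Its difference was -0.13 ± 0.15 (95% interval -0.51 to 0.24). Ptger4 had 6.62, 6.65, 7.10 and 6.69 in AdHIF1a wells, against 6.85, 6.88, 6.91 and 7.00 in AdGFP wells. Its AdHIF1a wells were below all AdGFP wells in rats 1, 2 and 4 and above them in rat 3, for a difference of -0.15 ± 0.11 (95% interval -0.43 to 0.14).

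Synthesis was set against uptake and breakdown by averaging differences within each rat. The 6 synthesis genes had mean differences of 0.15, 0.45, 0.45 and 0.19 in rats 1 to 4, and the pair of Slco2a1 and Hpgd had -1.25, -1.72, -1.17 and -1.68. The first minus the second was 1.40, 2.17, 1.62 and 1.87, with a mean of 1.76 ± 0.33 (SD, 4 rats), given without a test because the genes were chosen. The value rests on Ptges and Slco2a1. Within synthesis the genes went apart, with Ptges higher, Tbxas1 lower and Ptgs1 negative in 4 of 4 rats, and within uptake and breakdown Slco2a1 was lower while Hpgd had low signals in both groups.

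Over the 8 arrays the signals most like that of Ptges, by Pearson's r over all other genes, were those of Vegfa, the main endothelial growth factor gene (r = 0.999), Slc16a3, a lactate exporter (r = 0.994), and Dlc1 (r = 0.994). Their differences were 1.52 ± 0.15, 1.62 ± 0.15 and 1.31 ± 0.12. Vegfa had 11.04, 10.51, 10.17 and 10.54 in the AdGFP wells of rats 1 to 4, the same order of rats as Ptges. For Slco2a1 they were Mmp11, a matrix metalloproteinase (r = 0.997, difference -1.91 ± 0.17), RGD1563049 (r = 0.996, -0.62 ± 0.09) and Scn3b, a sodium channel subunit (r = 0.996, -2.26 ± 0.23). These correlations describe 8 wells that share the virus groups and rats, and were picked as the highest of all genes.

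**Figure D3:**
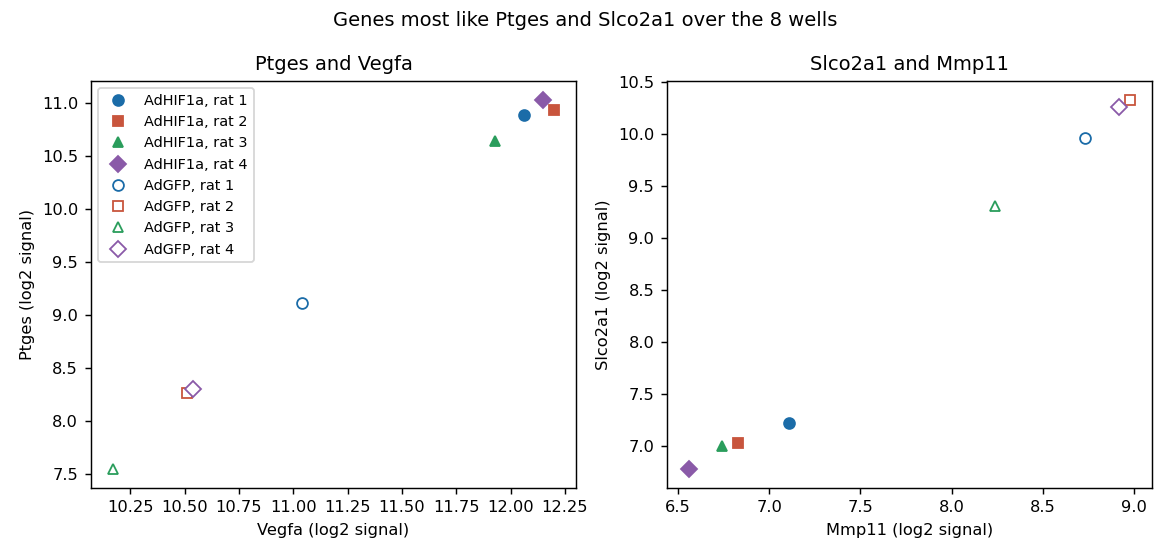
Log2 signals of Ptges against Vegfa (left panel) and of Slco2a1 against Mmp11 (right panel), with 1 symbol per well, filled for AdHIF1a and open for AdGFP, shaped by rat. Besides the gap between the groups, the AdGFP wells line up by rat in both panels, with rat 3 lowest.

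Other genes of the pathway were counted from lists drawn up with earlier results of these data known. Of 19 measured genes of arachidonate release, 3 were higher, 2 lower and 14 not called, with a median difference of -0.04. The secreted phospholipase genes Pla2g1b and Pla2g12a rose 2.88-fold (1.53 ± 0.15) and 2.77-fold (1.47 ± 0.13), and Faah, the hydrolase that frees arachidonic acid from anandamide, rose 1.88-fold (0.91 ± 0.09), with limma adjusted p-values of 0.00463, 0.00432 and 0.00437. Pla2g1b had 9.38, 8.75, 8.41 and 9.29 in AdHIF1a wells, against 8.07, 7.22, 7.15 and 7.29 in AdGFP wells, without overlap. The lower genes were the secreted phospholipase gene Pla2g2a (-0.46 ± 0.09), with means below 4.9 in both groups, and Anxa1 (-0.48 ± 0.09), a phospholipase-inhibiting annexin named after its values were seen. Both calls were lost without any 1 of the rats (adjusted p 0.0565 to 0.136 for Pla2g2a and 0.0597 to 0.137 for Anxa1), and that of Pla2g2a also without the rat as a block (0.0593). Pla2g4a, the cytosolic phospholipase that usually supplies cyclooxygenase, had a difference with a 95% interval of -0.34 to 0.34 and was named after its values were seen.

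Of 7 other terminal prostanoid synthase genes, 1 was higher, 1 lower and 5 not called (median -0.15). At an unadjusted p under 0.05 it was 1 higher and 2 lower. Akr1b1, named after its values were seen, differed by -0.33 ± 0.08 without overlap and just missed the threshold (limma adjusted p = 0.0534). Cbr1, a carbonyl reductase that can convert prostaglandin E2 to the F2 alpha form, rose by 0.65 ± 0.10 (0.43 with the mean of its probe sets), and Gstm2, a glutathione transferase with prostaglandin synthase activity, fell by 0.94 ± 0.15 (limma adjusted p = 0.0165 for both). Both calls were lost without rat 2 (adjusted p = 0.0836 and 0.0848) or rat 4 (0.0885 and 0.0589). The prostaglandin D synthase genes Ptgds and Hpgds and the prostacyclin synthase gene Ptgis had means between 4.07 and 4.57 in both groups, and were named for this after their values were seen.

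Among 8 other genes of export, uptake and breakdown, 1 was higher and 0 were lower by limma (median -0.01), and at an unadjusted p under 0.05 it was 1 and 1. The higher gene was Ptgr1, a reductase that acts on the product of the dehydrogenase and on leukotriene B4. Its signal was 5.28, 5.35, 5.42 and 5.75 in AdHIF1a wells, against 3.52, 4.07, 4.07 and 4.49 in AdGFP wells. The groups did not overlap, and the difference was 1.41 ± 0.12, or 2.66-fold (95% interval 2.18 to 3.25, limma adjusted p = 0.00333), from AdGFP signals below the median of all values. Ptgr2, another such reductase, differed in the other direction by -0.50 ± 0.12 and missed the threshold (adjusted p = 0.0534). The efflux pump gene Abcc4, which exports prostaglandin E2, differed by -0.11 ± 0.10 (adjusted p = 0.562). These last 2 genes were named after their values were seen.

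Of 7 other receptor genes, 0 were higher and 1 was lower by limma (median -0.07), the same counts as at an unadjusted p under 0.05. The lower gene, Ptgfrn, encodes a negative regulator of the prostaglandin F receptor and is itself no receptor of a prostanoid (-1.01 ± 0.18, adjusted p = 0.0215). Its call was lost without rat 2, 3 or 4 (0.100, 0.0537 and 0.0570). The 6 receptor genes proper differed by -0.12 to 0.20. Of these, 4 (Ptgfr, Ptger3, Ptgir and Ptgdr2, named after their values were seen) had means below the median of all values (5.10). Changes are compressed there, so differences in these genes may not be detectable.

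Ptger2 and Ptger4 act through cyclic AMP, and 17 genes linked to the cyclic AMP response were counted. They went both ways, with 4 higher, 3 lower and 10 not called (median -0.05). Atf3, a stress-induced transcription factor, rose by 0.95 ± 0.11, Fos by 0.82 ± 0.11 and Pde4b, a phosphodiesterase that degrades cyclic AMP, by 0.69 ± 0.10. Areg, which encodes the growth factor amphiregulin, fell by 1.48 ± 0.15. Nr4a2 (0.59 ± 0.10), Ppargc1a (-0.56 ± 0.11) and Sik1 (-0.45 ± 0.10) were also called and were named after their values were seen. Of the 7, only Atf3 and Areg kept their calls in all 12 alternative fits. Without the rat as a block Fos had an adjusted p of 0.212, Ppargc1a 0.0623 and Sik1 0.0760. Without 1 rat the adjusted p reached 0.0598 for Fos, 0.0799 for Pde4b, 0.0963 for Nr4a2, 0.145 for Ppargc1a and 0.155 for Sik1.

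**Figure D4:**
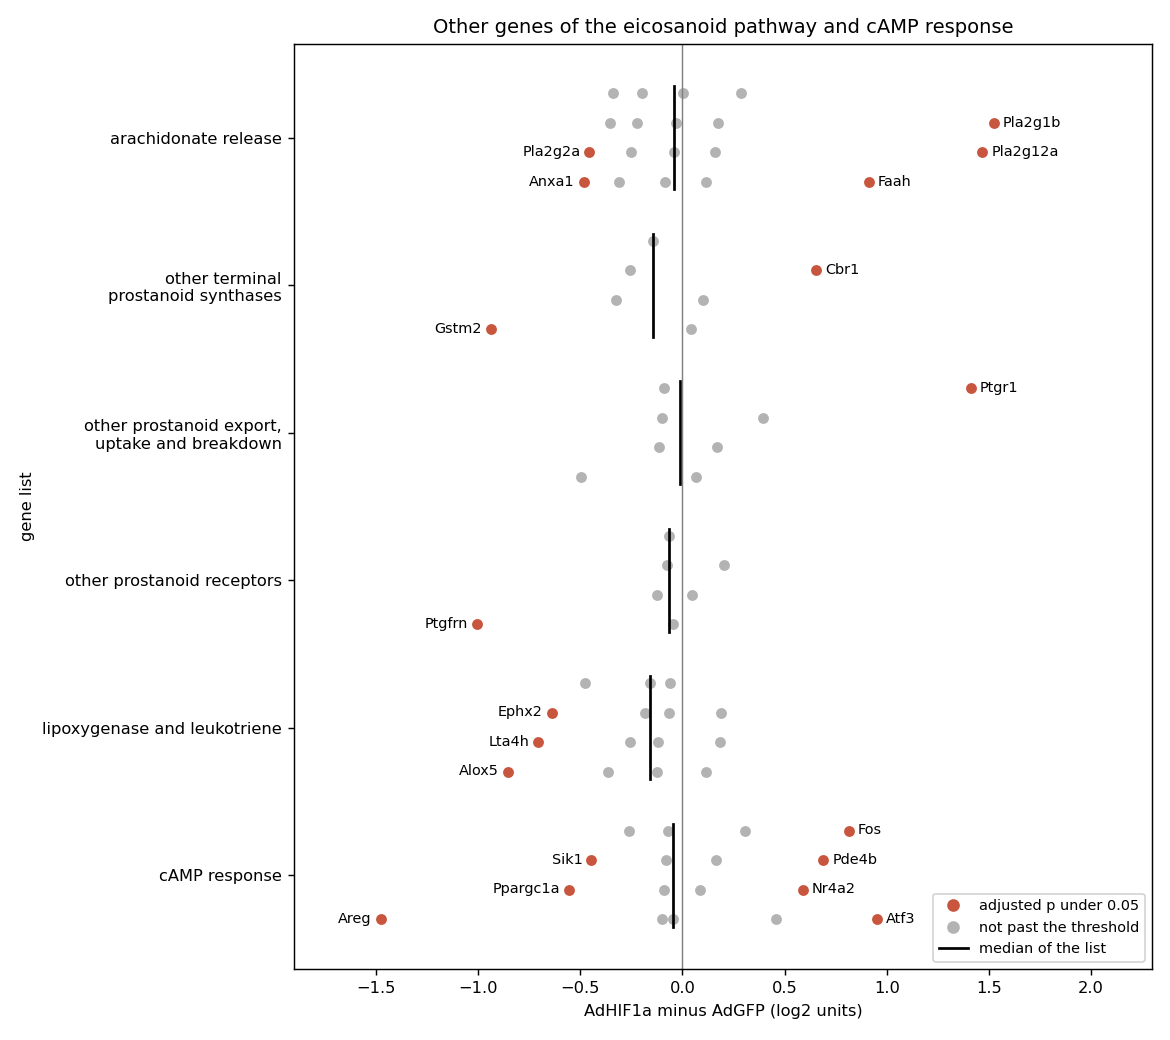
Difference AdHIF1a minus AdGFP in log2 units (x axis) of the other eicosanoid genes and of the cyclic AMP response genes by list (y axis), with called genes in red and named, other genes in grey and the list median as a black line. The medians lie between -0.16 and -0.01, and the called genes stand on both sides of 0 in 3 of the 6 lists.

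Markers of cell types that use these genes were set beside them. In bulk RNA, fewer cells of a type and less RNA per cell cannot be told apart. Of 10 markers of type I cells, thin cells for gas exchange into which ATII cells can turn, 7 were lower and 1 was higher, with median differences of -0.71, -1.24, -0.61 and -1.43 in rats 1 to 4, and the list averaged 8.05 to 8.70 in AdHIF1a wells and 8.95 to 9.52 in AdGFP wells. The 4 with the smallest adjusted p were Akap5 (-2.54 ± 0.27), Pdpn (-1.44 ± 0.18) and Aqp5 (-2.49 ± 0.34), all lower, and Igfbp2 (2.03 ± 0.25), the higher one. The count lower was 1 without rat 2, 3 without rat 4 and 5 without rat 1 or 3, and without rat 2 Pdpn and Aqp5 lost their calls (adjusted p = 0.0522 and 0.0607). Slco2a1 differed most in rat 4, then in rats 2, 1 and 3, which is the order of the type I medians, an order noticed in the data and not tested. Aqp5 had this order too, but Pdpn differed least in rat 1 (-0.92) and Akap5 most in rat 2 (-3.28). The medians of the ATII markers were also most negative in rat 4 (-0.43) and rat 2 (-0.37). Of 15 macrophage markers, 2 were lower and 0 higher by limma (6 and 1 at an unadjusted p under 0.05), with medians of -0.54, -0.05, -0.12 and -0.14, and a list average of 6.40 to 7.27 in AdHIF1a wells and 6.94 to 7.47 in AdGFP wells. The lower genes were Fcgr1a (-0.59 ± 0.09) and Adgre1 (-0.54 ± 0.12). Without the rat as a block both calls were lost (adjusted p = 0.0724 and 0.147), and without rat 2 or rat 4 the count lower was 0. Tbxas1, which macrophages express, differed most in rat 1, as did the median of the list, but Fcgr1a (-0.73) and Adgre1 (-0.86) differed most in rat 2. ATII markers went both ways, with Sftpa1 (0.89 ± 0.10) and Sftpb (0.69 ± 0.11) higher, and Muc1 (-1.32 ± 0.11), Napsa (-1.52 ± 0.18) and 3 others lower. The call of Sftpb was lost without the rat as a block (adjusted p = 0.128) and without rat 2, 3 or 4 (0.0736 to 0.0895), and that of Napsa without rat 2 (0.0509). The count of lower ATII markers was 3 without rat 1 and 2 without rat 2, 3 or 4. The part of any of these cell types in these results was not tested.

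Slco2a1 is also known from endothelium. Of 10 measured endothelial markers, 2 were lower and 0 higher by limma (the same at an unadjusted p under 0.05), with a list average of 5.32 to 5.42 in AdHIF1a wells and 5.44 to 5.56 in AdGFP wells. The defining markers Cdh5 and Vwf had means of 5.41 and 4.28 in AdHIF1a wells and 5.18 and 4.21 in AdGFP wells, near or below the array median, and were named after their values were seen. Other markers of the list were brighter, with means of 8.75 in AdHIF1a wells and 9.68 in AdGFP wells for Esam. Ramp2 had 6.70 in AdHIF1a wells and 7.43 in AdGFP wells, and Egfl7, named after its values were seen, 7.44 in AdHIF1a wells and 7.22 in AdGFP wells. The lower endothelial genes were Esam (-0.93 ± 0.09) and Ramp2 (-0.73 ± 0.17), whose call was lost without any 1 of the rats (adjusted p 0.0615 to 0.142). Of the fibroblast and smooth muscle markers 1 was lower (Tagln, -2.35 ± 0.23), and of the ciliated and club cell markers 2 were lower (Tppp3, -1.23 ± 0.19, and Ccdc39, -0.49 ± 0.09), with none higher by limma or at an unadjusted p under 0.05 in either list. Ccdc39 was not called without any 1 of the rats (adjusted p 0.0613 to 0.121), nor Tppp3 without rat 2 (0.0661) or rat 4 (0.0796).

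**Figure D5:**
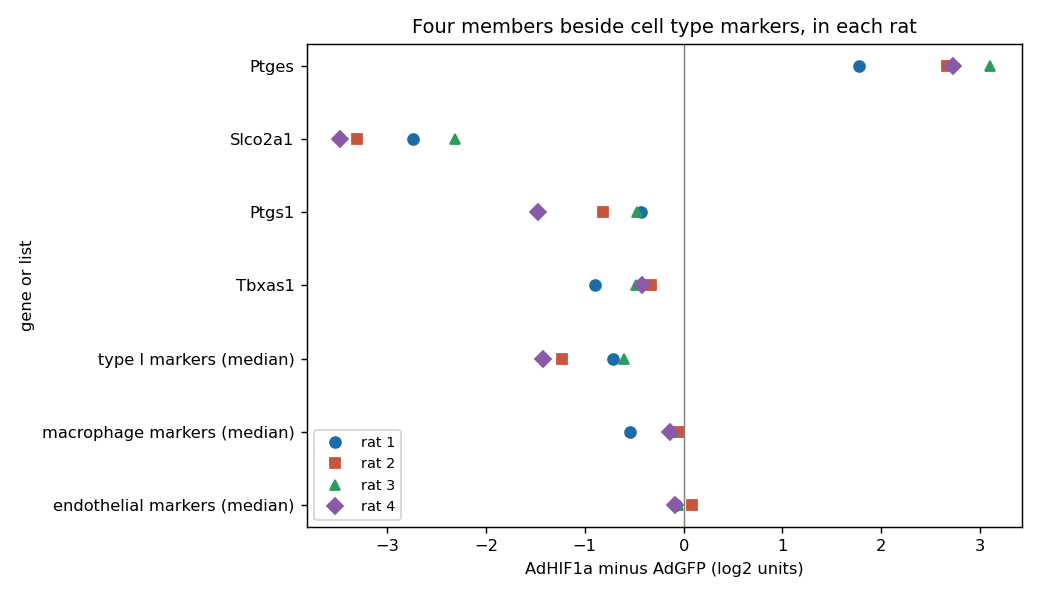
Difference AdHIF1a minus AdGFP in log2 units (x axis) in each of the 4 rats for Ptges, Slco2a1, Ptgs1 and Tbxas1, and the median difference of 3 lists of cell type markers (y axis). Slco2a1 and the median of the type I markers share the order of the rats, though not every type I marker has it. Tbxas1 and the median of the macrophage markers are lowest in rat 1, and the endothelial medians lie between -0.09 and 0.09.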

How the data were processed

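Per the submitters' processing notes, Affymetrix Expression Console made the values; they are taken as log2 signals of probe sets, deposited by the authors on one scale, since upper quartiles ran from 7.62 to 7.68. The algorithm, its version and the array's build were not given in the sources used. Low signals are compressed, and the number of arrays limits precision.

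Of 36685 probe sets, 18511 carried 1 gene symbol, 575 several and 17599 none. The probe set with the highest mean stood for a gene, leaving 18166 genes. limma 3.58.1 in R 4.3.3 (lmFit, eBayes) was fitted with the rat as a fixed block, because the series' design pairs the wells, and p-values were adjusted over the 18166 genes. Wells of one rat deviated together (correlations 0.18 to 0.26 across genes). The plan named a limma fit with 1 probe set a gene, without stating which probe sets share the variance prior. Read literally, it asks for a prior over the 18166 named genes. That prior was fitted first and gave 3674 calls. Several other forms were then compared, and the prior over all 36685 probe sets, with 2443 calls, was made the main one, because it uses the whole table and is how the series had been processed in earlier work. This was decided with both sets of calls in view.

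The genes named were the 10 members, Car12, Vegfa and Pdk1 as array checks, and in each list the 4 called genes with the smallest adjusted p. The 3 genes most like Ptges and Slco2a1 were also named, and others are said to be named after their values were seen. The members, the lists and the tests were chosen with earlier results of these data known. The promoter motifs were settled after the sequences were read: of 5 first searched on a longer window, ACGTG and GCGTG were kept, the others were dropped, GGGCGG was added and the window was shortened to 250 bases. Other fits used no block, a random block, quantile normalization, median centring, a filter at the median, other variance priors, the mean of probe sets, a stricter threshold, or 1 rat fewer.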

Additional observations from a re-analysis of the deposited data

Results flagged for a closer look

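In 1 of the 10 genes a single well stood apart from its group by Dixon's criterion at 95%, which chance meets in about 1 of 20 groups of 4. Of 30 groups tested, 2 were flagged, which is near what chance gives, and both flags come from that well. Ptger4 had a log2 signal of 7.10 in the AdHIF1a well of rat 3, against 6.62 to 6.69 in the AdHIF1a wells of the other rats. Its difference in rat 3 was accordingly 0.19, where the other rats had -0.23, -0.23 and -0.31.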

How the results depend on the processing

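Ptges and Slco2a1 kept their direction in all 12 alternative fits, with differences of 2.39 to 2.83 and -3.17 to -2.78. Both also stayed past the threshold. These fits reuse the arrays on which the 10 genes were chosen, so this is no independent support. The mean of synthesis minus uptake and breakdown was 1.63 to 1.89 with 1 rat left out and 1.77 with quantile normalization. The count of the 10 genes called lower turned on Tbxas1 and Ptgs1. It was 1 without the replicate block, 1 at an adjusted p under 0.01 and 1 in each fit without a rat. It was 3, with Ptgs1, under quantile normalization, median centring, the filter, the trended prior and the prior over named genes, against 2 in the fit used here. The count higher was 1 throughout. Apart from Tbxas1, the block changed no call among the 10 genes. Signs that turned, none past the threshold, were those of Ptges2 (-0.033 with quantile normalization, -0.075 with median centring, and -0.10 to 0.067 without 1 rat), Hpgd (-0.03 with median centring, and -0.01 to 0.11 without 1 rat) and Ptger2 (-0.24 to 0.033 without 1 rat). Over all genes, 635 were higher with median centring (32.4% of calls, against 42.2%), 349 were higher and 307 lower at an adjusted p under 0.01, and 315 to 775 were higher and 246 to 1231 lower without 1 rat. Without rat 2 these were 315 and 246, without rat 3 517 and 600, and without rat 4 324 and 301. The prior over the 18166 named genes called 1576 higher and 2098 lower, and Ptgs1 with an adjusted p of 0.0173. It is listed as an alternative added after seeing the data, although it was the first fit run. The stricter threshold lowers counts by construction, and the cause of the other changes, with those on leaving out a rat, was not tested.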

Other observations

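The leukotriene branch competes for the same arachidonic acid. A list of lipoxygenases, leukotriene enzymes, leukotriene receptors and Ephx2, which belongs to none of these classes, held 15 measured genes. Of the 15, 0 were higher and 3, Ephx2 among them, lower by limma (0 and 6 at an unadjusted p under 0.05), with a median difference of -0.16. Alox5, the lipoxygenase that starts leukotriene synthesis, had 6.85, 7.46, 6.71 and 6.62 in AdHIF1a wells, against 8.10, 8.09, 7.64 and 7.22 in AdGFP wells, with the AdHIF1a well of rat 2 above the AdGFP well of rat 4. The difference was -0.85 ± 0.14 (adjusted p = 0.0165). Lta4h, which makes leukotriene B4, fell by 0.71 ± 0.13, and Ephx2, an epoxide hydrolase, by 0.64 ± 0.12. Each of these 3 calls was lost without rat 2, 3 or 4 (adjusted p 0.0604 to 0.117), and that of Ephx2 also without rat 1 (0.0555). Alox5 differed most in rat 1 (-1.25), the rat in which the macrophage markers also had their lowest median (-0.54), although the called macrophage markers Fcgr1a and Adgre1 differed most in rat 2. The part of macrophages in this result was not tested.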
